A study of Homo sapiens with 8 samples.

Results

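The comparison set all 4 arrays of CUTLL1 cells that carried the miR-17-92 cluster against all 4 arrays of the same cells with the empty vector, Empty-V, with the treatment as a covariate, so that each gene had 1 vector effect averaged over both treatments. It used 8 of the 8 samples of the series and 21448 probe sets, of which 17709 carry 1 gene name each and 3739 none. CUTLL1 is a human T-ALL line grown from a pleural effusion at relapse, it carries a t(7;9) rearrangement, and its growth depends on NOTCH1. Cells were transduced with a lentivirus that holds the miRNA cluster, or with the same GFP-marked backbone without it, and transduced cells were sorted by flow cytometry. Sorted cells were then kept for 2 days in 1 µM of a γ-secretase inhibitor (GSI), which blocks the cleavage that activates NOTCH1, or in DMSO. Each of the 4 groups (cluster GSI, cluster DMSO, Empty-V GSI and Empty-V DMSO) has 2 arrays, named set 1 and set 2, and all rest on 1 cell line. RNA was hybridised to Clarion S Human arrays and the authors' log2 signals were used as deposited.

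The miR-17-92 cluster is a polycistron, in which 1 primary transcript, MIR17HG, is cut into several mature miRNAs. A mature miRNA is loaded on an Argonaute protein and pairs, mainly through its seed, with sites in target mRNAs, whose translation or stability then falls. The cluster is an oncogene of lymphoid tumours, is activated by MYC, and is known in T-ALL for its repression of tumour suppressors. The host gene MIR17HG lies at chr13:91347687-91354577 (GRCh38.p14). The 6 main mature products are shown because the lists of targets described below were grouped by their seeds, with bases 2 to 8 in capitals. RefSeq gave the sequences, which fall into 4 seeds.
miR-17-5p: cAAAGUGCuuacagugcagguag
miR-20a-5p: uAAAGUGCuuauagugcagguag
miR-18a-5p: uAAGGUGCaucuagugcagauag
miR-19a-3p: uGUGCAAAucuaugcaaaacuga
miR-19b-3p: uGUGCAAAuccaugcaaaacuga
miR-92a-3p: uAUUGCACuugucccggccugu
The miR-17 and miR-20a seeds are the same, those of miR-19a and miR-19b are the same, and miR-18a and miR-92a each have a seed of their own.

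The values lay between 1.97 and 18.49, with array medians from 5.30 to 5.36 and a median of 5.32 over all values, a level below which a probe set is called dim here. The 2 arrays of a group correlated across probe sets with r from 0.994 to 0.995, and their median absolute difference was 0.19 to 0.22. All 12 markers of the T lineage had a mean above 5.32. Among markers of other cells that was so for 3 of 4 for B cells, 1 of 5 for myeloid cells, 2 of 4 for erythroid cells and 3 of 7 for epithelial and stromal cells, and none of these 20 markers passed the test of the vector effect. The sum of the T lineage markers was 148.68 to 149.33 in cluster GSI, 149.56 to 152.33 in Empty-V GSI, 145.64 to 146.03 in cluster DMSO and 144.43 to 145.30 in Empty-V DMSO. The sum of the 4 erythroid markers was lower with the cluster under both treatments, at 17.89 to 17.92 against 18.53 to 19.00 under GSI and 18.03 to 18.94 against 19.16 to 19.27 under DMSO. That of the 5 myeloid markers was 24.30 to 25.72 against 23.52 to 23.58 under GSI and overlapped under DMSO, at 24.86 to 26.09 against 24.06 to 25.00. ITGAM, the myeloid marker above 5.32, had an effect of 0.63 with separated arrays under both treatments. The part of these shifts in the results was not tested. No probe set is named for MIR17HG, so the expression of the cluster itself was not checked under that name. The supplement describes the sets as independent experiments, which the labels do not state, and p-values measure the spread between these arrays.

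Across both treatments 64 of 21448 probe sets (0.298%) passed an adjusted p of 0.05 in limma, 26 higher with the cluster (0.121%) and 38 lower (0.177%). In all 64, both cluster arrays lay on the same side of both Empty-V arrays under GSI and under DMSO. The fit counts a difference of the vector effect between treatments as spread, so it favours probe sets with this placement. In a fit of 4 group means, which does not, 164 of the 176 called were so placed. That placement alone held for 2499 probe sets (11.7%), 1141 of them higher (5.32%) and 1358 lower (6.33%), and in 1875 (8.74%) the arrays were separated in opposite directions under the 2 treatments. Of the 64, 56 have a gene name, 25 higher and 31 lower. The absolute effects had a median of 0.93 on the log2 scale, and the smallest was 0.69. The call was tight, since 14 of the 64 shared the largest adjusted p inside the threshold, 0.0491, and the first named gene outside it, ERMP1, had an effect of -0.73 with an adjusted p of 0.0502. With the set as a block 13 of the 64 kept their call, namely TC1300007706.hg.1, ERVH48-1, S100A10, NRN1, UBE2F, GCHFR, SPOPL, SOX5, CD48, AFF3, TENT5C, DCLK3 and DNTT. Without cluster GSI replicate 1 or 2 the count was 11 or 9, without cluster DMSO replicate 1 or 2 it was 14 or 19, without Empty-V GSI replicate 1 or 2 it was 7 or 11, and without Empty-V DMSO replicate 1 or 2 it was 13 or 25. TC1300007706.hg.1, NRN1, AFF3, DNTT, SOX5 and TENT5C were called in all 8 of these fits and with the block.

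**Figure D1:**
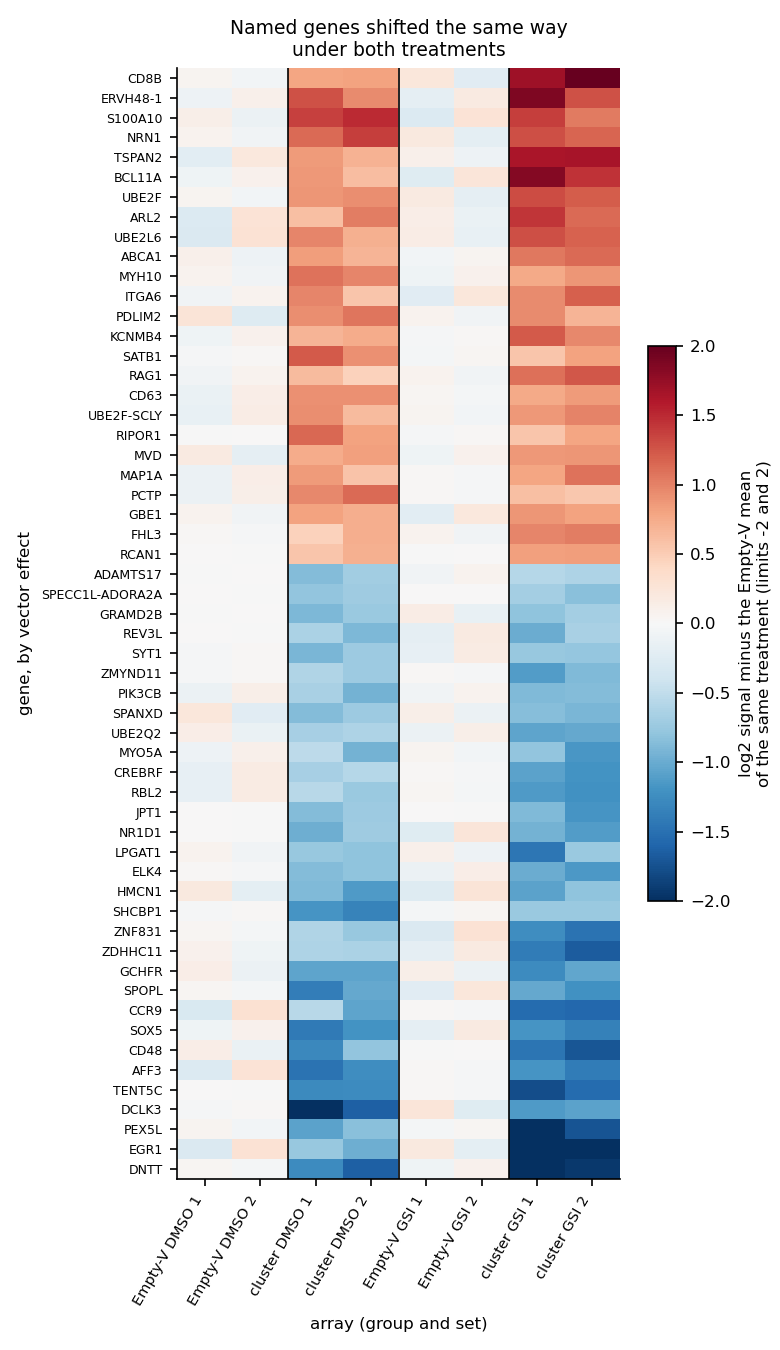
Heat map of the 56 named genes called across treatments, as the log2 signal of each array minus the Empty-V mean of the same treatment, with arrays in columns by group and set and genes in rows by vector effect (colours limited to -2 and 2). The 4 cluster columns are red for the 25 higher genes and blue for the 31 lower genes, and the 4 Empty-V columns are pale.

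The largest vector effect belonged to a probe set with no gene name, TC1300007706.hg.1. Its log2 signal was 11.55 and 12.14 in cluster GSI and 11.04 and 10.66 in cluster DMSO, against 6.02 and 6.45 in Empty-V GSI and 7.26 and 6.54 in Empty-V DMSO. All 4 cluster arrays were far above all 4 Empty-V arrays. The effect across treatments was 4.78 (SE 0.318, adjusted p = 0.000207), with 5.61 under GSI and 3.95 under DMSO. The ID begins with TC13, and those of CD8B (TC0200013324.hg.1) and DNTT (TC1000008539.hg.1) begin with the numbers of their chromosomes, 2 and 10. MIR17HG lies on chromosome 13, and whether this probe set reads its transcript was not tested. The other 7 unnamed probe sets of the 64 were all lower, among them TC0900010388.hg.1 with -1.43 and TC0300012048.hg.1 with -1.07. TC0900010388.hg.1 had 3 group means below 5.32.

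Genes that rose with the cluster included surface and lymphoid genes. CD8B (chr2:86815369-86861886), the β chain of the CD8 coreceptor, had the largest effect of a named gene in this direction. Its log2 signal was 8.01 and 8.72 in cluster GSI and 7.40 and 7.42 in cluster DMSO, against 6.54 and 6.10 in Empty-V GSI and 6.67 and 6.55 in Empty-V DMSO. The effect was 1.42 (SE 0.252, adjusted p = 0.0491, and 0.10 with the set as a block), so the gene lay at the edge of the threshold. BCL11A, a zinc finger repressor needed for lymphoid development, read 9.24 and 8.85 in cluster GSI and 9.25 and 8.99 in cluster DMSO, against 7.17 and 7.64 in Empty-V GSI and 8.30 and 8.46 in Empty-V DMSO. It was higher by 1.19 across treatments (SE 0.204, adjusted p = 0.0467, and 0.10 with the block). SATB1, a chromatin organiser of thymocytes, read 13.32 and 13.58 in cluster GSI and 13.03 and 12.73 in cluster DMSO, against 12.73 and 12.81 in Empty-V GSI and 11.79 and 11.83 in Empty-V DMSO. Its effect was 0.88 (SE 0.141, adjusted p = 0.0419, and 0.10 with the block). RAG1, a subunit of the recombinase that rearranges antigen receptor genes, was higher by 0.86 (SE 0.153, adjusted p = 0.0491, and 0.117 with the block), with 13.58 and 13.71 in cluster GSI against 12.54 and 12.41 in Empty-V GSI, and 11.28 and 11.10 in cluster DMSO against 10.57 and 10.71 in Empty-V DMSO. For these 4 genes, as for all 64 called, the arrays of the vectors did not overlap within either treatment, a placement the fit favours.

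Other genes that rose act in the cytoskeleton, at the membrane and in conjugation of ubiquitin-like proteins. S100A10, a small partner of annexin A2, had 8.81 and 8.47 in cluster GSI and 8.22 and 8.36 in cluster DMSO, against 7.16 and 7.70 in Empty-V GSI and 6.97 and 6.75 in Empty-V DMSO. Every cluster array was above every Empty-V array, and the effect was 1.32 (SE 0.157, adjusted p = 0.00977, and 0.0309 with the block). NRN1, a membrane-anchored neuritin, kept nearly the same vector effect at very different levels. It read 10.75 and 10.63 against 9.66 and 9.27 under GSI and 13.16 and 13.40 against 12.09 and 11.95 under DMSO, cluster first, which gave 1.23 and 1.26 under the 2 treatments and 1.24 across them (SE 0.135, adjusted p = 0.00668, and 0.0178 with the block). ERVH48-1, a gene derived from an endogenous retrovirus, had an effect of 1.34 (SE 0.177, adjusted p = 0.0165), with 2 group means below 5.32. UBE2F, an enzyme that conjugates NEDD8, was higher by 1.09 (SE 0.138, adjusted p = 0.0142), and the read-through gene UBE2F-SCLY, which overlaps it, by 0.86. Their probe sets may read shared exons and are not independent. UBE2L6, which conjugates the ubiquitin-like ISG15, was higher by 1.04.

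TSPAN2, a tetraspanin, rose by 1.21, ARL2, a GTPase of tubulin assembly, by 1.05, ABCA1, the cholesterol efflux transporter, by 0.93, and MYH10, a heavy chain of non-muscle myosin, by 0.92 on the log2 scale. ITGA6, the integrin chain α6, rose by 0.92, PDLIM2, a PDZ and LIM domain protein, by 0.91, and KCNMB4, a subunit of calcium-activated potassium channels, by 0.90. Without the block these passed with adjusted p from 0.0177 for MYH10 to 0.0491 for ITGA6, and with the set as a block none of the 7 passed (0.0681 to 0.10). ITGA6 had all 4 group means below 5.32, KCNMB4 had 3 of them and PDLIM2 2. CD63, a tetraspanin of late endosomes and a standard marker of exosomes that was picked out after its values were seen, read 7.91 and 8.00 against 7.2 and 7.11 under GSI and 8.39 and 8.39 against 7.34 and 7.61 under DMSO, cluster first. Its effect was 0.86 (SE 0.123, adjusted p = 0.0247, and 0.0865 with the block).

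**Figure D2:**
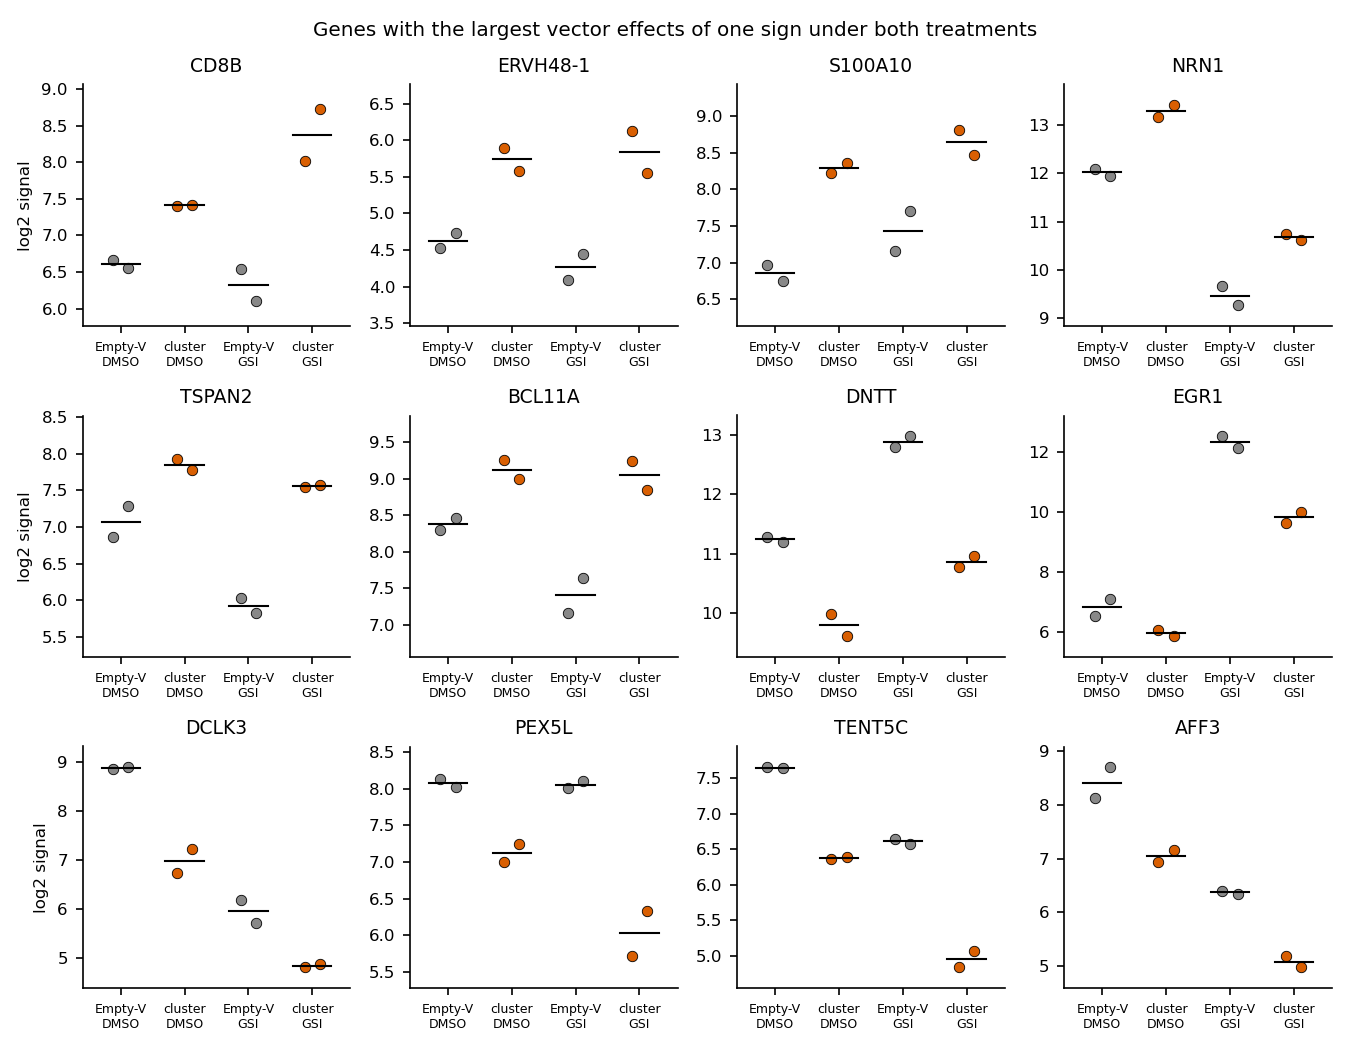
Log2 signal on each of the 8 arrays for the 6 named genes with the largest positive and the 6 with the largest negative vector effect among those called, with Empty-V in grey, cluster in orange and the mean of the 2 arrays as a line. Axes differ in range between genes, and within DMSO and within GSI the 2 cluster arrays lie on 1 side of the 2 Empty-V arrays in each panel.

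Among genes that fell, DNTT (chr10:96304434-96338564), the terminal transferase that adds nucleotides at V(D)J junctions, changed most. It read 10.77 and 10.96 in cluster GSI and 9.98 and 9.60 in cluster DMSO, against 12.81 and 12.98 in Empty-V GSI and 11.28 and 11.20 in Empty-V DMSO, so that every cluster array was below every Empty-V array. The effect was -1.74 (SE 0.159, adjusted p = 0.00186, and 0.00712 with the block), with -2.03 under GSI and -1.45 under DMSO. DNTT and RAG1, both of antigen receptor rearrangement, moved in opposite directions. TENT5C, a non-canonical poly(A) polymerase, read 4.84 and 5.07 in cluster GSI and 6.37 and 6.39 in cluster DMSO, against 6.64 and 6.58 in Empty-V GSI and 7.65 and 7.64 in Empty-V DMSO. The spread within its groups was small, and the effect was -1.46 (SE 0.132, adjusted p = 0.00186, and 0.00712 with the block). SOX5, an HMG-box transcription factor, read 9.06 and 8.88 against 10.05 and 10.42 under GSI and 5.74 and 5.97 against 7.07 and 7.25 under DMSO, cluster first. Its effect was -1.29 (SE 0.136, adjusted p = 0.0064, and 0.0158 with the block), and it hardly differed between treatments (-1.27 and -1.31) although Empty-V cells differed by 3.08 between GSI and DMSO. AFF3, a nuclear factor of the AF4 family, had an effect of -1.33 (SE 0.149, adjusted p = 0.00746, and 0.0178 with the block), with -1.29 under GSI and -1.36 under DMSO.

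CD48, CCR9 and EGR1 were also among the 14 largest falls. CD48, a SLAM family ligand, read 8.46 and 8.20 in cluster GSI and 4.86 and 5.36 in cluster DMSO, against 9.91 and 9.92 in Empty-V GSI and 6.29 and 6.02 in Empty-V DMSO, an effect of -1.32 (SE 0.168, adjusted p = 0.0142, and 0.032 with the block). CCR9, the receptor of the thymic and gut chemokine CCL25, read 11.50 and 11.47 against 13.06 and 13.02 under GSI and 7.55 and 7.05 against 7.81 and 8.41 under DMSO, cluster first. Its effect was -1.18 (SE 0.197, adjusted p = 0.0429, and 0.10 with the block), and under DMSO the nearest arrays of the 2 vectors, 7.55 and 7.81, were close. EGR1, an immediate early zinc finger factor, read 9.64 and 10.00 in cluster GSI and 6.05 and 5.84 in cluster DMSO, against 12.52 and 12.12 in Empty-V GSI and 6.52 and 7.10 in Empty-V DMSO. Its effect across treatments was -1.68 (SE 0.296, adjusted p = 0.0491, and 0.10 with the block). The value under GSI was -2.50 and that under DMSO was -0.87, and the adjusted p of EGR1 for the latter was 0.321.

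Of the remaining genes in the 14 largest falls, DCLK3, a doublecortin-like kinase, had an effect of -1.49, with the larger value under DMSO (-1.88, adjusted p = 0.0449). PEX5L, a relative of the peroxisomal import receptor, had -1.49, SPOPL, an adaptor of CUL3 ubiquitin ligases, -1.16, and GCHFR, the feedback regulator of GTP cyclohydrolase, -1.10. ZDHHC11, of the palmitoyltransferase family, had -1.08, ZNF831, a zinc finger protein, -1.03, and SHCBP1, which binds the adaptor SHC, -1.0. PEX5L, ZDHHC11, ZNF831 and SHCBP1 lost their call with the block, where their adjusted p was 0.0557 to 0.101. ZDHHC11 had 2 group means below 5.32 and DCLK3 had 1. The other 17 named genes that fell had effects between -0.98 and -0.69.

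The vector effect was tested within each treatment as well, in pairs of groups that share no array. Both tests used 1 estimate of the spread from all 8 arrays, so they are not independent. Under GSI 230 probe sets (1.07%) passed and under DMSO 9 (0.042%). Of the 64, 37 also passed under GSI and 5 under DMSO, these 5 being TC1300007706.hg.1, DNTT, TENT5C, DCLK3 and SHCBP1. The effect was larger in size under GSI in 46 of the 64 and under DMSO in 18. Among those higher its median was 1.08 under GSI and 0.81 under DMSO, and among those lower -1.08 and -0.80. None of the 64 passed the test of the difference between treatments, for which the smallest adjusted p among them was 0.216. The fit that called the 64 favours probe sets with little such difference, so this outcome is no evidence that their effects are equal. Over all 21448 probe sets the effects under GSI and DMSO had r = 0.112, a description across genes, which are not independent, and 51.4% had the same sign. Of the 230 called under GSI, 168 (73.0%) had the same sign under DMSO, where the medians were 0.16 for those higher under GSI and -0.28 for those lower. With the set as a block 33 passed under GSI and 3 under DMSO, against 230 and 9. Under GSI the count was 4 without cluster GSI replicate 1 or Empty-V GSI replicate 2, 8 without cluster GSI replicate 2, 9 without Empty-V GSI replicate 1, 77 without either Empty-V DMSO array and 85 without either cluster DMSO array. Under DMSO it was 0 without cluster DMSO replicate 1, 1 without replicate 2 of either DMSO group, 2 without Empty-V DMSO replicate 1 and 3 without any 1 of the GSI arrays.

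**Figure D3:**
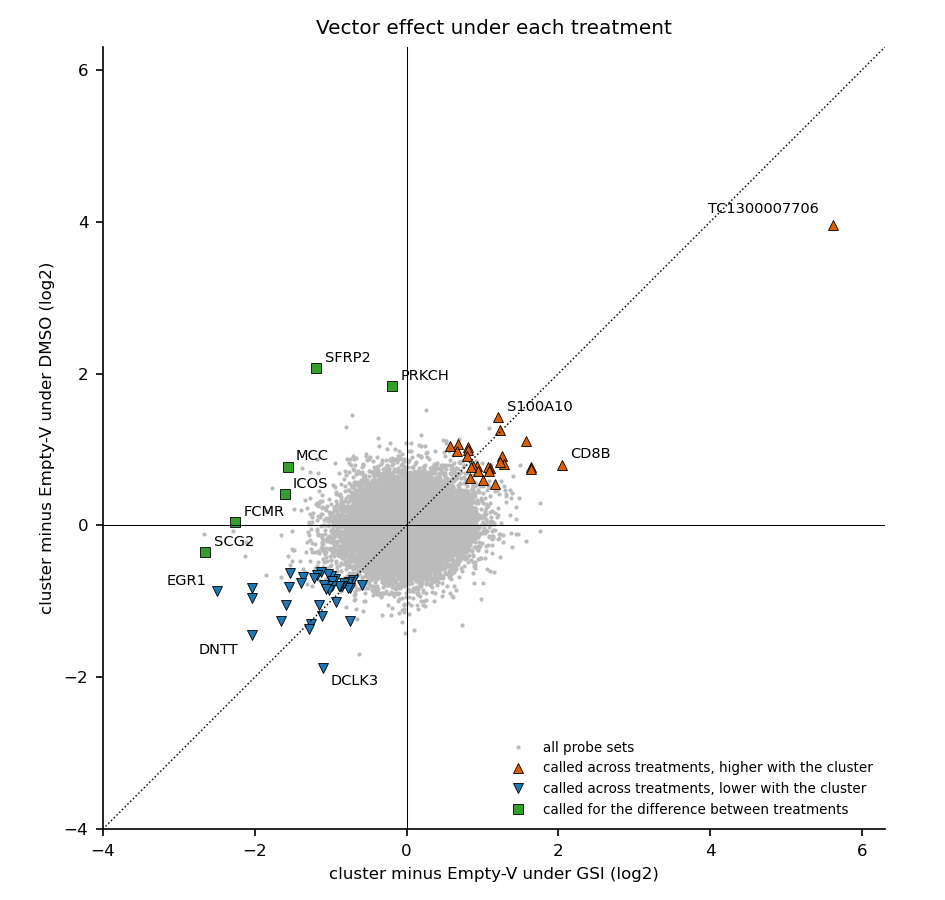
Vector effect (cluster minus Empty-V, log2) under GSI on the x axis and under DMSO on the y axis for all 21448 probe sets in grey, with the 26 called higher and 38 called lower across treatments as triangles, the 6 called for the difference between treatments as squares, and the line of equal effects dotted. The 64 lie in the lower left and upper right of the plot, and the grey cloud shows little slope (r = 0.112).

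Literature targets of the cluster leaned lower, mainly under GSI, with few calls. Of 80 such genes taken from general knowledge, with earlier results of these data known, 75 were measured. Contrasts with all probe sets are thus not independent support. At the adjusted threshold 2 fell (RBL2 and REV3L) and none rose, beside 0.177% and 0.121% of all probe sets. At an unadjusted p of 0.05, 21 were lower and 1 higher, beside 1533 and 1232 of all 21448 probe sets (12.9% in either direction). In 15 of the 75 (20%) both cluster arrays were below both Empty-V arrays under both treatments, against 6.33% of all probe sets, and in none were they above, against 5.32%. The median effect was -0.14 across treatments, -0.28 under GSI and -0.02 under DMSO, beside -0.01 over all probe sets across treatments. Values below 0 were counted for 56 of the 75 genes under GSI and 38 under DMSO, beside 11122 and 10984 of all 21448 probe sets. By seed, 6 of 30 targets of miR-17/20a, 2 of 12 of miR-18a, 7 of 22 of miR-19 and 2 of 18 of miR-92a were lower under both treatments. A gene can stand in several of these lists. The targets of miR-19 had a median of -0.37 under GSI and 0.01 under DMSO, and those of miR-17/20a -0.21 and -0.12.

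RBL2 (chr16:53434471-53491648), the pocket protein p130 that holds cells in G1 and a target of the miR-17/20a seed, read 11.74 and 11.66 in cluster GSI and 11.34 and 11.14 in cluster DMSO, against 12.92 and 12.83 in Empty-V GSI and 11.72 and 12.06 in Empty-V DMSO. The effect was -0.91 (SE 0.151, adjusted p = 0.0429, and 0.10 with the block). REV3L, the catalytic subunit of DNA polymerase ζ and a target of miR-92a, read 8.40 and 8.73 against 9.21 and 9.56 under GSI and 8.97 and 8.70 against 9.61 and 9.59 under DMSO, cluster first. Its effect was -0.79 (SE 0.140, adjusted p = 0.0491, and 0.116 with the block), nearly equal under the 2 treatments at -0.82 and -0.77. Other targets had separated arrays under both treatments but missed the threshold. ULK1, the autophagy kinase, had an effect of -0.66 (adjusted p = 0.0866), CBX7, a Polycomb protein, -0.66 (adjusted p = 0.0824), and BTG3, an antiproliferative factor, -0.55 (adjusted p = 0.0943). BCL2L11, the pro-apoptotic BIM, is a well-known target and had an effect of -0.06 (adjusted p = 0.872), with 6.39 to 6.51 in the cluster arrays and 6.40 to 6.63 in the Empty-V arrays. TGFBR2, a receptor of TGF-β, had -1.03 under GSI and 0.00 under DMSO, neither past the threshold.

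**Figure D4:**
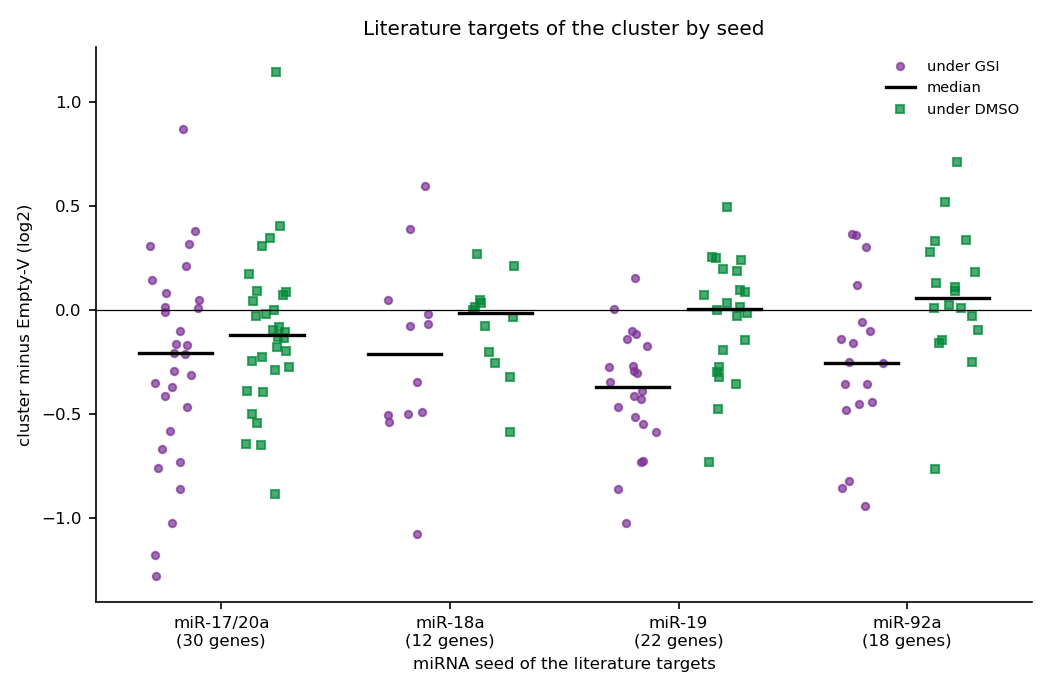
Vector effect (cluster minus Empty-V, log2) of the literature targets of each seed under GSI (circles) and under DMSO (squares), with the median as a black line. Medians under GSI lie between -0.37 and -0.21, and those under DMSO between -0.12 and 0.06.

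Genes of cholesterol and fatty acid synthesis were mostly higher with the cluster under both treatments, by small amounts. Of 26 measured genes of this list, 19 (73.1%) had both cluster arrays above both Empty-V arrays under GSI and under DMSO, against 5.32% of all probe sets, and none had them below. The list and its members were chosen with earlier results of these data known, so this contrast is not independent support. MVD alone passed the adjusted threshold. At an unadjusted p of 0.05, 18 were higher and 0 lower, beside 1232 and 1533 of all 21448 probe sets. The median effect was 0.39 across treatments, 0.46 under GSI and 0.28 under DMSO. Among the 19 the effects ran from 0.25 to 0.91, with 0.26 to 1.36 under GSI and 0.13 to 0.96 under DMSO. The count was also 19 after quantile normalization, a weak check because the deposited values had already been brought to a common distribution.

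MVD (chr16:88651940-88663091), the decarboxylase that forms isopentenyl diphosphate, read 8.06 and 8.07 in cluster GSI and 9.10 and 9.19 in cluster DMSO, against 7.11 and 7.28 in Empty-V GSI and 8.55 and 8.18 in Empty-V DMSO. The effect was 0.83 (SE 0.130, adjusted p = 0.0381, and 0.10 with the block). HMGCS1, which makes HMG-CoA, read 14.79 and 15.08 against 14.22 and 14.10 under GSI and 15.08 and 15.05 against 14.48 and 14.44 under DMSO, cluster first, an effect of 0.69 (adjusted p = 0.0516). ELOVL6, a fatty acid elongase, had 0.81 (adjusted p = 0.0517) and NSDHL, a sterol dehydrogenase, 0.70 (adjusted p = 0.0743). LSS, lanosterol synthase, had the largest value of the list, 0.91 (adjusted p = 0.0935), with 1.36 under GSI and 0.47 under DMSO. SREBF2, the main transcription factor of sterol synthesis, had an effect of -0.02 (adjusted p = 0.975) its arrays overlapping under GSI and lower with the cluster under DMSO. LSS and SREBF2 were picked out after their values were seen.

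**Figure D5:**
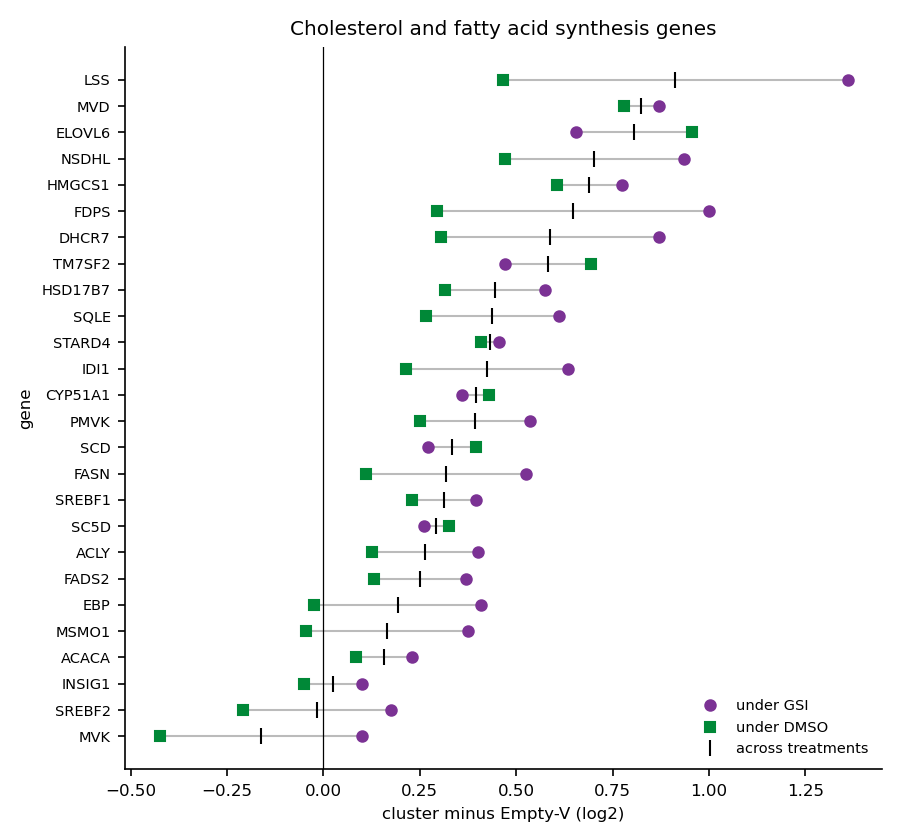
Vector effect (cluster minus Empty-V, log2) of the 26 measured cholesterol and fatty acid synthesis genes under GSI (circles), under DMSO (squares) and across treatments (ticks), with genes ordered by the last. All 26 circles and 21 of the squares lie above 0.

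The other lists held few calls. Over all 32 lists 680 of 745 genes were measured by 682 probe sets. Of these 5 rose and 6 fell, beside 26 (0.121%) and 38 (0.177%) of all 21448 probe sets. The same shares belong beside the calls in each list below. All lists were chosen with earlier results of these data known, so these contrasts are not independent support. Of 22 progenitor and recombination genes RAG1 rose and DNTT fell, and RAG2, the partner of RAG1, had 0.84 (adjusted p = 0.0763) with its arrays separated under both treatments, by little under DMSO (11.27 against 11.05). Of 31 lymphoid transcription factors SATB1 and BCL11A were called higher and none was called lower. SOX5, a transcription factor called lower above, is not in this list. At an unadjusted p of 0.05, 3 of the 31 were higher and 6 lower, with a lowest effect of -1.39 and a median of -0.045. Of 25 T-cell receptor and coreceptor genes CD8B rose, and at the unadjusted threshold 2 were higher and 4 lower. Of 25 genes of T-cell activation and chemokine reception CD48 and CCR9 fell, and in 6 (24.0%) the arrays were lower and in 3 (12%) higher under both treatments, beside 6.33% and 5.32% of all probe sets. The median of these 25 was -0.34 under GSI and 0.14 under DMSO. CD69, an early activation marker, had -0.98 (adjusted p = 0.0958). Of 28 immediate early genes EGR1 fell, 5 (17.9%) were lower under both treatments and 2 (7.14%) higher, with a median of -0.26 under GSI and 0.07 under DMSO. The 5 included ZFP36, which destabilises mRNAs, at -0.77 (adjusted p = 0.0895). Of 30 regulators of G1 and S phase RBL2 fell. In 6 (20%) of the 30 the arrays were higher and in 3 (10%) lower under both treatments. The median of these 30 was 0.15 across treatments, 0.16 under GSI and -0.03 under DMSO. CCNG1 and CCNG2, both atypical cyclins, had 0.61 (adjusted p = 0.0653) and -0.74 (adjusted p = 0.0715).

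No member passed in the lists of the proteasome, DNA replication, oxidative phosphorylation, NOTCH1 targets, PI3K signalling, interferon response, p53 targets, microRNA machinery and housekeeping genes. These lists are not complete. PIK3CB, a PI3K catalytic subunit picked out after its values were seen, is outside the PI3K list and was called lower. Its effect was -0.84 (adjusted p = 0.0366, and 0.10 with the block). UBE2L6, called higher above, is outside the interferon list. Of 36 proteasome genes 9 (25.0%) were higher under both treatments and none lower, beside 5.32% and 6.33% of all probe sets. Their median was 0.22 across treatments, 0.42 under GSI and 0.03 under DMSO, where 15 of the 36 were below 0. PSMB5, a catalytic subunit, had 1.76 under GSI (adjusted p = 0.00489) and 0.29 under DMSO. The 36 DNA replication genes had a median of 0.45 under GSI and -0.08 under DMSO, and the 36 genes of oxidative phosphorylation 0.46 and -0.09, with medians of 0.23 and 0.18 across treatments. CDT1, a replication licensing factor, had 0.82 across treatments (adjusted p = 0.0932). Among NOTCH1 targets CR2, a complement receptor, came nearest with -1.03 (adjusted p = 0.0557), and its arrays were lower under both treatments. Of 17 microRNA machinery genes AGO1, an Argonaute, had the smallest p, with -0.60 (adjusted p = 0.15). Among 24 genes of PI3K signalling 6 (25.0%) were lower and 3 (12.5%) higher under both treatments, beside 6.33% and 5.32% of all probe sets, with a median effect of 0.005. The 6 included PHLPP2 and INPP5D, both phosphatases that limit the pathway, with -0.57 each, and PIK3CG, a catalytic subunit, with -0.59. Of 21 housekeeping genes 2 (9.52%) were higher under both treatments and none lower, beside 5.32% and 6.33% of all probe sets.

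For 6 probe sets (0.028%) the vector effect differed between treatments, so that an average does not describe them. SFRP2, a secreted antagonist of WNT, read 8.93 and 8.80 in cluster GSI against 10.02 and 10.09 in Empty-V GSI, and 9.34 and 9.19 in cluster DMSO against 7.38 and 7.00 in Empty-V DMSO. The cluster arrays were the lower ones under GSI and the higher ones under DMSO. Its effect was -1.19 under GSI, 2.08 under DMSO and 0.44 across them, and the difference of -3.27 had an adjusted p of 0.0067 (0.0177 with the block). ICOS, a costimulatory receptor of T cells, had -1.61 under GSI and 0.41 under DMSO, and MCC, named for its mutation in colorectal cancers, -1.57 and 0.78. SCG2, a granin, had -2.65 and -0.35. FCMR, an Fc receptor of IgM, had -2.26 and 0.05, and PRKCH, a protein kinase C, -0.19 and 1.84. FCMR and PRKCH were named to complete the count, after their values were seen. With the set as a block SFRP2 alone passed. The count was 0 without either cluster GSI array, cluster DMSO replicate 1 or Empty-V GSI replicate 2, 1 without cluster DMSO replicate 2 or either Empty-V DMSO array, and 2 without Empty-V GSI replicate 1.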

How the data were processed

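Probes on 8 Clarion S Human arrays were summarized by the authors per gene and deposited as log2 values, computed with SST-RMA in Transcriptome Analysis Console (hg38 per the submitters' processing notes). SST-RMA corrects the background and brings arrays to a common distribution, so a shift of most genes would be removed. Values were not scaled further. The number of arrays, 2 per group, limits the precision. Arrays were grouped by their labels, and gene names came from the platform's annotation and positions from RefSeq (GRCh38.p14).

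In R 4.3.3 with limma 3.58.1, all 8 arrays were fitted with vector and treatment as terms (5 residual and 6.15 prior degrees of freedom). A fit of 4 group means (4 residual, 5.29 prior) gave the effect under GSI, under DMSO and their difference. P-values were adjusted by Benjamini-Hochberg over all 21448 probe sets, with a threshold of 0.05. Arrays were called separated if both of 1 vector lay above both of the other. Effects are cluster minus Empty-V.

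Set numbers were taken to pair the arrays, since the supplement names independent experiments. Deviations from group means correlated between groups by -0.240 to -0.192. The set as a block was an alternative, beside 4 group means, a threshold of 0.1, omission of dim probe sets, quantile normalization, an intensity trend with robust fit, absolute r above 0.8 after centring within treatments, and leaving out each array. Named genes are the 14 largest effects per direction among named calls, up to 4 members per list with the smallest p, members of the target and microRNA machinery lists, and up to 4 genes for the difference. The members and lists were chosen with earlier results of these data known. The fits were tested on simulated data. Figures were drawn with matplotlib 3.10.9 in Python 3.11.15.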

Additional observations from a re-analysis of the deposited data

Results flagged for a closer look

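The vector effect differed between treatments by the test of the difference itself in 6 genes. The effect under GSI minus that under DMSO was -3.27 for SFRP2 (adjusted p = 0.0067), -2.34 for MCC (adjusted p = 0.0294), -2.30 for SCG2 (adjusted p = 0.0294), -2.02 for ICOS (adjusted p = 0.0296), -2.31 for FCMR (adjusted p = 0.0397) and -2.03 for PRKCH (adjusted p = 0.0412). In each the effect under GSI was the lower one. With the set as a block SFRP2 had an adjusted p of 0.0177, and the other 5 had values from 0.112 to 0.129. MCC had all 4 group means and SCG2 3 of them below 5.32. Groups of 2 arrays were not tested for outliers.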

How the results depend on the processing

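The count of 64 across treatments was 176 with 4 group means, 234 at a threshold of 0.1, 207 without dim probe sets, 277 with an intensity trend and robust fit, and 1775 at an absolute r above 0.8. Of these, 64, 64, 55, 64 and 64 were among the 64. Separated arrays held in 164, 234, 207, 277 and 1651 of them. All of these settings but the 4 group means count a difference between treatments as spread, which favours separation. With the set as a block the count was 13, and with crossed set numbers, a pairing added after seeing the data, it was 23. All of the 13 and 22 of the 23 were among the 64. It was 7 to 25 when single arrays were left out, the smallest without Empty-V GSI replicate 1. All of those called with the block had separated arrays, as did those called with single arrays left out (7 to 25).

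Under GSI the count of 230 was 33 with the replicate block, 927 at a threshold of 0.1, 912 without dim probe sets, 1232 with the trend and 4 to 85 without single arrays. Under DMSO the count of 9 was 3 with the block, 43 without dim probe sets, 5 after quantile normalization, 45 with the trend and 0 to 3 without single arrays. The 6 differences between treatments were 1 with the block, 21 at a threshold of 0.1, 14 without dim probe sets, 111 with the trend and 0 to 2 without single arrays. The 11 calls among listed genes were 32 with 4 group means, 2 with the block, 27 at a threshold of 0.1, 26 without dim probe sets, 37 with the trend and 1 to 3 without single arrays. The causes were not tested, beyond fewer probe sets without dim ones and fewer arrays in leave-outs.

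Of 65 genes named in the text, 22 lost their call with the block, 18 with the crossed block and 16 to 28 without single arrays, and 12 to 17 gained one with 4 group means, a threshold of 0.1, no dim probe sets or the trend. None lost or gained one after quantile normalization, a weak check on values already brought to a common distribution. The sign changed for SREBF2 alone, whose effect of -0.02 ranged from -0.12 to 0.049 without single arrays. Separation is easier to meet with fewer arrays, so its counts without single arrays, 19 to 21 for the 19 sterol genes and 15 to 21 for the 15 lower seed targets, could not fall and show nothing of stability. Seed targets higher under both treatments went from 0 to 2 or 3 in 5 of the 8 leave-outs.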
